A study of Homo sapiens with 12 samples.

Results

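The genes of cholesterol and fatty acid synthesis were followed by ribosome profiling (Ribo-seq) in HCT116, a human cell line of colorectal cancer, after inhibition of the kinases MEK1/2. They were chosen by gene symbol, as genes of sterol and lipid synthesis that the SREBP transcription factors control, and 32 of the 15798 genes in the table were members. They comprise 18 enzymes of the sterol arm, 6 genes of regulation and transport, and 8 enzymes of the fatty acid arm. All 32 were expressed at a level that allowed a test.

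Cells received 100 nM trametinib, a MEK1/2 inhibitor, or its solvent DMSO for 24 h. From each lysate, fragmented cytoplasmic RNA (input) gave the abundance of mRNAs, and the mRNA stretches that ribosomes shield from RNase I (footprints) gave the amount of mRNA being translated. The 12 libraries form 4 groups of 3, since each treatment was sequenced in both assays. Both treatments ended with a short exposure to cycloheximide, which freezes ribosomes on the mRNA, and all cells were grown in medium with fetal bovine serum, a source of sterols and lipids.

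Cells sense sterols at the membrane of the endoplasmic reticulum. The precursors of the factors SREBP1 and SREBP2 (genes SREBF1 and SREBF2) are bound there by their escort SCAP, which the INSIG proteins hold back while sterols are plentiful. When sterols run low, SCAP carries the precursors to the Golgi, proteases release the active factors, and these switch on the enzymes that build cholesterol from acetyl-CoA as well as those that make and desaturate fatty acids. INSIG1 is itself a target, so its mRNA is a common readout of SREBP activity, and fast-growing tumour cells depend on the pathway for membranes.

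Each gene was described by its normalized count, the number of reads in its reading frame divided by a size factor for the library. A change is the log2 ratio of trametinib over DMSO, a gene was called higher or lower when the adjusted p of edgeR's quasi-likelihood test over the 10663 tested genes was under 0.05, and ribosome density is footprints over input. The scaling sets the typical gene to no change, so a loss of translation common to all mRNAs was not visible in any of these values. In lysates of whole dishes, fewer cells and less RNA per cell cannot be told apart. The study describes its replicates as biological, while the labels say no more about the cultures they came from. P-values measure the spread between these samples.

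Input libraries held 2276693 to 2845568 counts and footprint libraries 10127477 to 19181588. Counts of single members in input ran from 14 for MVK to 7991 for FASN. The epithelial markers EPCAM, CDH1, KRT8, KRT18 and KRT19 were all abundant, while PTPRC, CD3E, COL1A2, DCN, PECAM1 and APOA1 had at most 3 counts in any library, CD68 had at most 22, and COL1A1, with at most 148, was not called. COL3A1 and VWF, usually fibroblast and endothelial genes, were low in DMSO input, at 0.720 ± 1.25 and 9.42 ± 8.92 normalized counts (SD, n = 3), and higher under trametinib, at 82.3 ± 22.9 and 55.4 ± 3.34, and their part in the results on lipid genes was not tested. All 7 genes listed as ERK pathway output, DUSP6 among them, were called lower in input, with changes of -7.64 to -1.96.

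One pair of libraries stood apart for the lipid genes and touches every result on them. In the input of DMSO replicate 1, 19 of 32 members had the lowest value of the 3 DMSO libraries, and in its footprints 24 of 32 did, against 35.2% and 41.2% of all tested genes. Most of these genes were in the sterol arm, with 13 of 18 members lowest in input and 15 of 18 in footprints. The fatty acid arm shared this, with 5 of 8 lowest in input and 7 of 8 in footprints. Among the 6 genes of regulation and transport 1 and 2 were lowest. For the median gene of the fatty acid arm, DMSO replicate 1 held 87.2% of the mean of the other 2 DMSO libraries in input and 83.5% in footprints. For the median sterol gene, DMSO replicate 1 held 62.8% of the mean of the other 2 DMSO libraries in input and 57.2% in footprints, where the median of all tested genes was 98.8% and 98.6%. Over all genes this dish was less unusual in input. There 19.8% of tested genes were more than 1.5-fold away from the mean of the other 2 DMSO libraries, against 12.0% and 20.7% for DMSO replicates 2 and 3. Of the 32 members 13 were, against 1 and 9. In footprints this dish was the furthest off over all genes too. There 17.4% of tested genes and 16 members were that far away, against 5.25% and 2 in DMSO replicate 2 and 8.90% and 7 in DMSO replicate 3. Over all tested genes it was the lowest control for 3751 and the highest for 3616 in input, and for 4392 and 4192 in footprints. Of the members it was the highest for 6 in input and 7 in footprints. INSIG1, which holds the SREBP precursors back, was among the genes furthest below its other libraries, at percentile 0.338 of all tested genes in input and 0.216 in footprints. The number of members called in each comparison is therefore given with and without DMSO replicate 1, an alternative chosen after the values were seen. Shares of counts, comparisons of density by dish, results with other scalings and results on genes outside the members are given with all libraries only. The same holds for some changes of single members. Why that dish was lower was not tested.

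**Figure D1:**
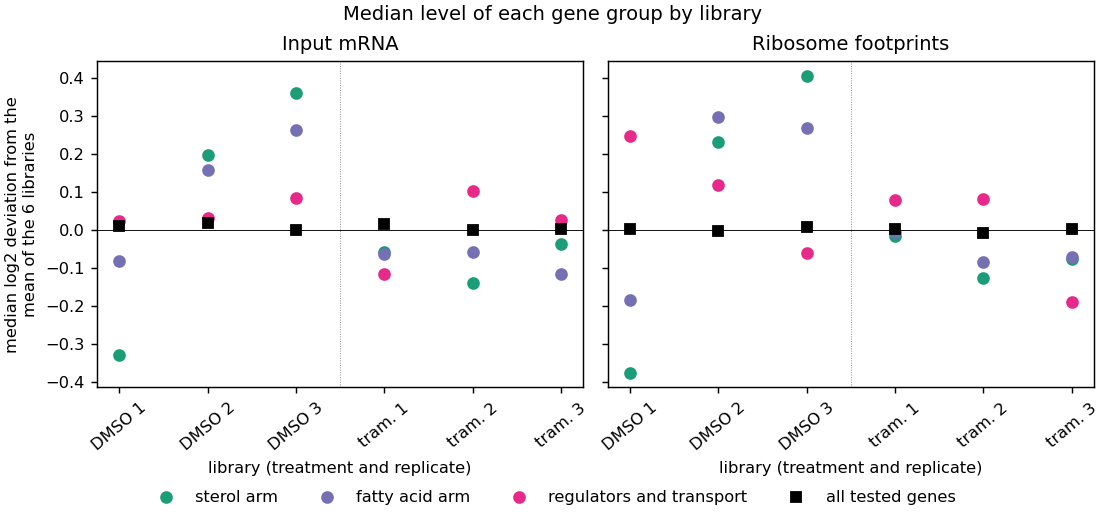
For each library on the horizontal axis, the points give the median log2 deviation of a gene group from the mean of the 6 libraries of the same assay, and black squares give all tested genes. The sterol arm sits at -0.33 in DMSO 1 and at 0.20 and 0.36 in DMSO 2 and 3 in input, with the trametinib libraries between -0.14 and -0.04.

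As the plot of group medians by library shows, the 3 trametinib libraries of the sterol arm lay close together, above DMSO replicate 1 and below DMSO replicates 2 and 3. In footprints the sterol arm had a median deviation of -0.38 in DMSO replicate 1, of 0.23 and 0.41 in replicates 2 and 3, and of -0.02, -0.13 and -0.08 under trametinib. The median coefficient of variation of members in footprints was 7.22% among trametinib libraries and 25.1% among DMSO libraries, against 8.06% and 14.4% for all tested genes. In footprints the median member thus varied more between DMSO libraries than the typical gene, and not more between trametinib libraries. Among DMSO footprints the value was 30.4% in the sterol arm, 18.3% for regulators and transport and 15.2% in the fatty acid arm. Among DMSO input libraries it was 28.3%, 18.2% and 13.9% in these groups. There it was 22.3% for all members and 18.8% for all tested genes.

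Summed over all members, the lipid genes took 0.590% ± 0.152 (SD, n = 3) of the counts of DMSO input libraries and 0.563% ± 0.0126 under trametinib. In footprints they took 0.590% ± 0.125 in DMSO and 0.623% ± 0.0245 under trametinib. Differences between the treatments were in both assays smaller than the spread among DMSO libraries. FASN, the fatty acid synthase that assembles palmitate, alone accounted for 0.217% ± 0.101 of DMSO input counts and 0.212% ± 0.0143 of trametinib input counts.

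Promoter windows from the RefSeq tables for GRCh38.p14, the 250 bases before a start, were found for 28 of the 32 members and searched on both strands for 3 motifs. These were the sterol regulatory element TCACNCCAC, where N is any base, the E-box CACGTG and the box CCAAT that NF-Y, a common partner of SREBP, recognises. CCAAT stood in at least 1 window of 20 of the 28 members (71.4%) and of 42.2% of the 8717 tested genes with a window. The E-box was found for 3 members (10.7%, all tested genes 11.6%), namely INSIG1, SC5D and SCAP, and the sterol element for 1 (3.6%, all tested genes 1.2%), SREBF2. The windows of 4 genes are printed, with motif letters in capitals (a CCAAT box on the other strand reads ATTGG) and without overlap between motifs: SREBF2 for its sterol element, TM7SF2 and EBP as the sterol enzymes that rose and fell most in input, and SCD as an abundant enzyme for which no change was called.
SREBF2 (chr22:41832855-41833104, + strand): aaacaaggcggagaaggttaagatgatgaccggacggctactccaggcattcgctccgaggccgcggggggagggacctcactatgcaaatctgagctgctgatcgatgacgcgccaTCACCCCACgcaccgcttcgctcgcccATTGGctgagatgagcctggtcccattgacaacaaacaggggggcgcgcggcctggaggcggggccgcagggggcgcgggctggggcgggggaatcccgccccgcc
TM7SF2 (chr11:65111622-65111871, + strand): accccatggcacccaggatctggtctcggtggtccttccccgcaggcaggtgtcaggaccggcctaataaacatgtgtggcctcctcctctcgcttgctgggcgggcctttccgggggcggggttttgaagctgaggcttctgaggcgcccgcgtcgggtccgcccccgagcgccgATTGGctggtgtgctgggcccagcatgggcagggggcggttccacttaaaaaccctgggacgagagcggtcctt
EBP (chrX:48521558-48521807, + strand): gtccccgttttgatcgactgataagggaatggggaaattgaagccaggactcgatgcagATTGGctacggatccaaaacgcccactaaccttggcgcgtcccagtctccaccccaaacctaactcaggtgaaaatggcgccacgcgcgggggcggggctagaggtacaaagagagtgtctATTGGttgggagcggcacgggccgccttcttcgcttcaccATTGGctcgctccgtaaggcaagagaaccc
SCD (chr10:100346983-100347232, + strand): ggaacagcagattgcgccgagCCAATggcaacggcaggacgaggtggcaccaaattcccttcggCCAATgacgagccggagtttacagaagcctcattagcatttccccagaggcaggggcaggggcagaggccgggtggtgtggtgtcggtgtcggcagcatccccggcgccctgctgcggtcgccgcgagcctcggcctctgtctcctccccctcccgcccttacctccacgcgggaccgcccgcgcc
In SREBF2 the sterol element began 133 bases and the CCAAT box 106 bases before the start. TM7SF2 had its one CCAAT box 74 bases before the start, EBP had 3 such boxes at 191, 70 and 30 bases, and SCD had 2 at 229 and 186 bases, so that the gene that rose and the gene that fell both carried this motif. These matches describe letters in a window and say nothing of factor binding in these cells.

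The first comparison asked how trametinib changed the abundance of lipid synthesis mRNAs. Of 32 members, 2 were called higher and 4 lower in input, and 26 did not pass the threshold, where 15.2% of all tested genes were called higher and 16.9% lower. In either direction 6 of 32 members were called, a smaller share than the 32.1% of all tested genes. TM7SF2 and ELOVL6 rose, whereas EBP, STARD4, ACSS2 and CYP51A1 fell. The median change of the members was -0.23 and that of all tested genes -0.01. In the sterol arm 1 gene rose and 2 fell of 18, among regulators and transport 0 rose and 1 fell of 6, and in the fatty acid arm 1 rose and 1 fell of 8. Without overlap between the groups, trametinib values lay below DMSO for 6 members and above for 2, with 23.3% and 23.2% of all tested genes as background.

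**Figure D2:**
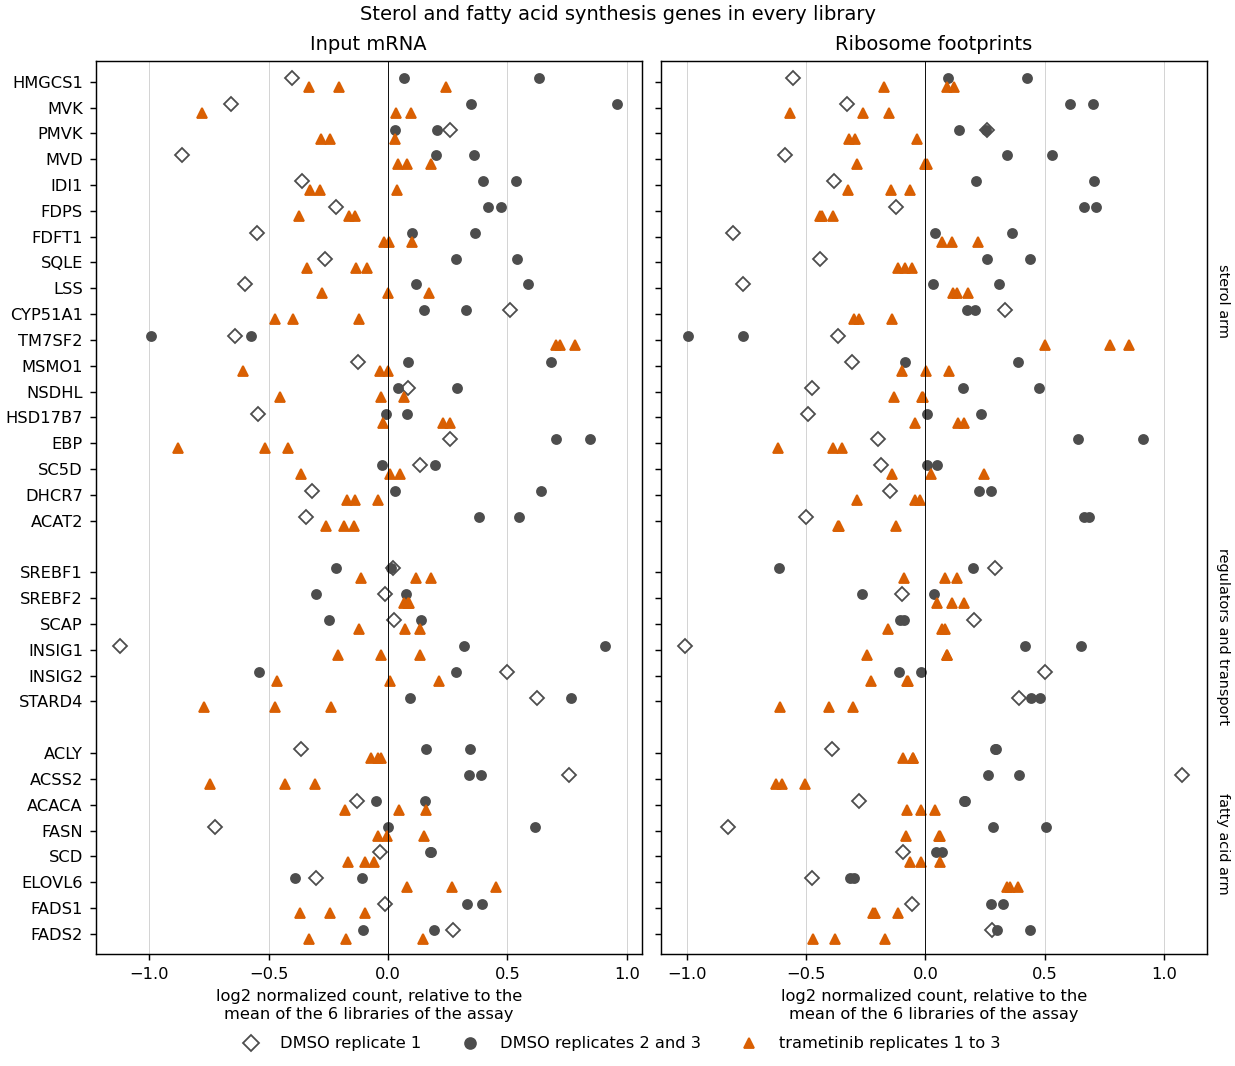
Each row is a gene and each symbol a library, placed by its log2 normalized count relative to the mean of the 6 libraries of the assay (left input, right footprints). Trametinib triangles of TM7SF2 and ELOVL6 lie to the right of all DMSO symbols and those of EBP, STARD4, ACSS2 and CYP51A1 to the left, whereas for most sterol genes the open diamond of DMSO replicate 1 lies left of the other DMSO libraries.

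Removing DMSO replicate 1 raised the number of members called lower in input from 4 to 12 and left 2 called higher, while the background moved only to 18.4% lower, 16.4% higher and 34.8% in either direction. The 8 added genes were MVK, IDI1, FDPS, SQLE, DHCR7, ACAT2, INSIG1 and FADS1, and the median of the members became -0.30. Leaving out any other single input library gave 3 or 4 lower members. Among all members, 16 of 32 had each trametinib input value below DMSO replicates 2 and 3, against 28.0% of all tested genes, and in footprints 19 of 32 did, against 37.0%. The number of members called lower thus depended on 1 of 3 control dishes. Since that dish was left out because it was low in these genes, leaving it out was bound to add lower calls.

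**Figure D3:**
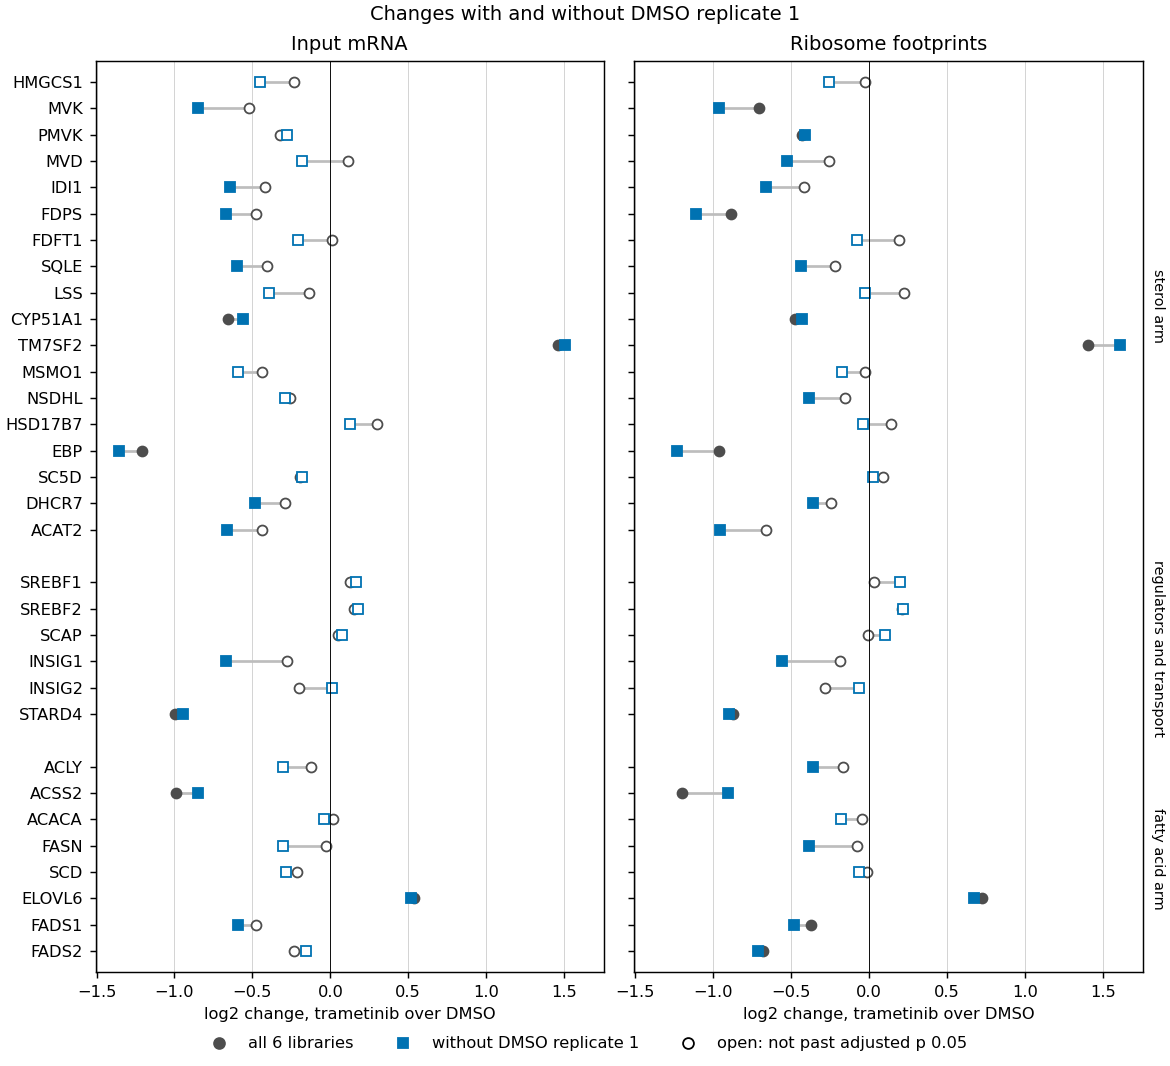
Circles give the log2 change of each gene with all 6 libraries and squares the change without DMSO replicate 1, in input and in footprints. Filled symbols passed an adjusted p of 0.05. Most sterol genes move to the left when the dish is removed, with 12 instead of 4 members called lower in input and 18 instead of 9 in footprints.

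Among the regulators, the genes of the SREBP factors and of their escort kept their levels within the spread of the libraries. SREBF1 (log2 change 0.12 in input, adjusted p = 0.549) had normalized input counts of 2239, 1895 and 2224 in DMSO and 2038, 2391 and 2499 under trametinib. SREBF2 (log2 change 0.15, SE 0.14, adjusted p = 0.462) had 1844, 1508 and 1957 in DMSO and 1947, 1974 and 1967 under trametinib. For SCAP the input counts were 807, 668 and 873 against 729, 834 and 869 (log2 change 0.05, SE 0.16, adjusted p = 0.836). In all 3 genes the DMSO and trametinib values overlapped. Their footprints were 1623, 1522 and 865 in DMSO and 1452, 1404 and 1244 under trametinib for SREBF1, and 227, 186 and 184 and 207, 209 and 177 for SCAP. SREBF2 footprints were 655, 718 and 583 in DMSO and 783, 758 and 725 under trametinib, a small rise without overlap that did not pass the test (log2 change 0.21, SE 0.11, adjusted p = 0.147).

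INSIG1, the retention protein whose own mRNA follows SREBP activity, was where the control dishes parted most. Its normalized input counts were 82.0, 222 and 335 in DMSO replicates 1 to 3 and 154, 196 and 175 under trametinib. Its footprints were 56.7, 152 and 179 in DMSO and 121, 121 and 96.1 under trametinib. All trametinib values thus lay between the low first control and the other 2. With all libraries no change was called (log2 change -0.28, SE 0.36, adjusted p = 0.59 in input, adjusted p = 0.68 in footprints), and without DMSO replicate 1 the changes were -0.67 in input (adjusted p = 0.0215) and -0.56 in footprints (adjusted p = 0.00385). INSIG2, a related protein with the same role, had 125, 108 and 60.9 in DMSO input and 89.0, 103 and 64.3 under trametinib, and its controls did not follow those of INSIG1, since replicate 1 was the highest. INSIG2 footprints were 139.6, 91.2 and 97.3 and 93.7, 93.3 and 84.2, with no call in either assay (adjusted p = 0.63 and 0.227).

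STARD4 is a carrier that moves cholesterol between membranes. With all libraries and scaling by size factors, STARD4 was the only gene of the regulator and transport group called in either assay. STARD4 had 139 ± 31.8 (SD, n = 3) normalized input counts in DMSO and 69.3 ± 12.6 under trametinib (log2 change -0.998, SE 0.25, adjusted p = 0.00942). In footprints it had 299 ± 8.80 and 164 ± 17.4 (log2 change -0.87, SE 0.12, adjusted p = 0.000422). Groups did not overlap in either assay, and the fall without DMSO replicate 1 was of the same size, -0.95 and -0.90.

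The sterol genes called in input with all libraries were TM7SF2, EBP and CYP51A1. TM7SF2 (chr11:65111845-65116384, + strand), a reductase of sterol intermediates, rose from normalized input counts of 317, 248 and 332 in DMSO to 806, 816 and 851 under trametinib (log2 change 1.46, SE 0.16, adjusted p = 2.47e-05). Its footprints went from 185, 141 and 119.8 to 409.5, 432 and 339 (log2 change 1.40, SE 0.17, adjusted p = 0.000252). Every trametinib library was above every DMSO library in both assays, and TM7SF2 was the one sterol gene that rose.

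EBP (chrX:48521799-48528716, + strand), the isomerase that shifts the double bond of the sterol ring, moved the other way. Its input counts were 90.6, 123 and 136 in DMSO and 53.0, 56.6 and 41.1 under trametinib (log2 change -1.21, SE 0.26, adjusted p = 0.00349), and its footprints 64.8, 116 and 140.1 and 56.8, 58.3 and 48.5 (log2 change -0.96, SE 0.26, adjusted p = 0.0144). The groups did not overlap, although DMSO replicate 1 was again the lowest control, and the footprint change without trametinib replicate 3 was -0.89 (adjusted p = 0.0614). CYP51A1 (chr7:92084987-92134803, - strand), the demethylase of lanosterol, had 849.9, 748 and 663 in DMSO input and 549, 453 and 429 under trametinib (log2 change -0.66, SE 0.17, adjusted p = 0.00872). Its footprints were 1559, 1428 and 1398 and 1122, 1019.8 and 1007 (log2 change -0.48, SE 0.11, adjusted p = 0.00558). Here DMSO replicate 1 was the highest control, so the fall of CYP51A1 was slightly smaller without it, -0.56 in input and -0.43 in footprints. The input call narrowly failed without trametinib replicate 2 (-0.62, adjusted p = 0.0528) and without trametinib replicate 3 (-0.59, adjusted p = 0.0536).

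FDPS (chr1:155308748-155320666, + strand), which makes farnesyl diphosphate for sterols and for prenylated proteins, had an input call that changed with the dish and with the model. Input counts were 731, 1136 and 1178 in DMSO and 758, 772 and 656 under trametinib, so that the first control overlapped with the treated dishes (log2 change -0.48, SE 0.19, adjusted p = 0.0692). Footprints were 1024, 1770.5 and 1832 and 822, 853 and 826, without overlap, and fell (log2 change -0.89, SE 0.20, adjusted p = 0.0062). Without DMSO replicate 1, FDPS fell by 0.67 in input (adjusted p = 0.00196) and by 1.11 in footprints (adjusted p = 2.77e-07). When DMSO and trametinib libraries were paired by replicate number, FDPS was also called lower in input with all libraries (-0.45, adjusted p = 0.0442).

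MVK, the kinase that phosphorylates mevalonate, had input counts of 36.7, 73.5 and 112 in DMSO and 33.7, 61.8 and 59.1 under trametinib (adjusted p = 0.328). Its footprints were 88.8, 182 and 169.9 and 100.2, 92.9 and 75.2, and they narrowly passed the test (log2 change -0.70, SE 0.26, adjusted p = 0.048). The first control lay inside the trametinib range in both assays. The footprint call was lost without any 1 of the other 5 libraries (adjusted p between 0.0736 and 0.159) and stood firmest without DMSO replicate 1 (-0.96, adjusted p = 5.51e-05). With the replicate number as a block, that is with DMSO and trametinib libraries paired by number, the call was lost too (-0.65, adjusted p = 0.068). ACAT2, the cytosolic thiolase that joins 2 acetyl-CoA units, had input counts of 177, 328 and 293 and 197, 203 and 188 and footprints of 284, 636 and 645 and 312, 311 and 368 in DMSO and trametinib. MSMO1, a methyl oxidase of sterols, had input counts of 183, 212 and 321 and 199.8, 131 and 195 and footprints of 421, 490.5 and 680.5 and 521, 486 and 557. Both had an input change of -0.44 and passed no test with all libraries. They parted without DMSO replicate 1, where ACAT2 fell in input (-0.66, adjusted p = 0.00937) and in footprints (-0.96, adjusted p = 4.64e-06) and MSMO1 passed in neither (adjusted p = 0.0529 and 0.264).

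The other 11 sterol genes had input changes between -0.42 (IDI1, the isomerase of isopentenyl diphosphate) and 0.30 (HSD17B7, a ketosteroid reductase), with no call. HMGCS1, the synthase at the entry to the mevalonate route, changed by -0.23 (SE 0.25), SQLE, the squalene epoxidase, by -0.41 (SE 0.20), and FDFT1, the squalene synthase, by 0.01 (SE 0.20). For HMGCS1 the 95% interval of the input change ran from -0.77 to 0.31, which leaves room for a fall of the size seen in CYP51A1. HSD17B7 has near-identical pseudogene copies, and reads shared between gene symbols were not counted, so its level is uncertain.

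The fatty acid arm was split, with one fall in both assays, one rise in both assays, and small or uncalled changes in the genes that make up most of its counts. ACSS2 (chr20:34872146-34927962, + strand), which turns acetate into acetyl-CoA, had input counts of 382, 296 and 286 in DMSO and 135, 167 and 182 under trametinib (log2 change -0.99, SE 0.20, adjusted p = 0.00206). Its footprints were 509, 317 and 289 and 159, 156 and 169.8 (log2 change -1.20, SE 0.21, adjusted p = 0.00141). Groups did not overlap and the first control was the highest, opposite to most sterol genes, so that ACSS2 footprints fell by 0.90 without it. ELOVL6 (chr4:110045846-110199199, - strand), the elongase that extends palmitate, had input counts of 226, 259 and 213 in DMSO and 383, 337 and 296 under trametinib (log2 change 0.54, SE 0.18, adjusted p = 0.0327) and footprints of 415, 469 and 463 and 756, 732 and 738 (log2 change 0.72, SE 0.10, adjusted p = 0.000502). All treated libraries were above all controls, and the rise in footprints was well measured, with trametinib values close to each other. In input the call was lost when DESeq2 was used on all libraries (0.54, adjusted p = 0.058). It was also lost without DMSO replicate 3 (0.48, adjusted p = 0.0589), without trametinib replicate 1 (0.44, adjusted p = 0.15) and without trametinib replicate 2 (0.54, adjusted p = 0.0981).

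FADS1 and FADS2, the desaturases of polyunsaturated fatty acids, are neighbours on chromosome 11 whose annotated spans overlap on opposite strands, and the strand setting of the counting is not given in the sources used here. FADS1 had input counts of 293, 372 and 389 in DMSO and 277, 249.6 and 229 under trametinib (adjusted p = 0.0557) and footprints of 276, 359 and 347 and 247, 246 and 264 (log2 change -0.37, SE 0.13, adjusted p = 0.0363). FADS2 had input counts of 84.1, 64.8 and 79.6 and 55.4, 77.2 and 61.7 (adjusted p = 0.506) and footprints of 110.5, 112 and 124 and 65.7, 80.9 and 69.9 (log2 change -0.68, SE 0.14, adjusted p = 0.00391). Both fell in footprints without overlap, while in input FADS2 groups overlapped. The footprint call of FADS1 was lost without any 1 of the 5 libraries other than DMSO replicate 1 (adjusted p between 0.0683 and 0.123) and that of FADS2 was not.

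SCD, which places the first double bond into saturated fatty acids, kept its footprints, at 8023, 8979.5 and 8822 in DMSO and 8935, 8443 and 8195 under trametinib (log2 change -0.01, SE 0.12, adjusted p = 0.931). Its input counts were 3270.1, 3772 and 3788 and 2979, 3132 and 3208, lower in each treated library but not past the test (adjusted p = 0.237). ACLY, which releases acetyl-CoA from citrate, had input counts of 2474, 3558 and 4039 in DMSO and 3119, 3031 and 3095 under trametinib, and footprints of 3077, 4958 and 4933 and 3890.2, 3775 and 3891. No change was called for it with all libraries (adjusted p = 0.62 and 0.472), since the treated dishes lay between the first control and the other 2. FASN had input counts of 7386, 12216 and 18710 in DMSO and of 12170.4, 11845 and 13564 under trametinib, a spread among controls of more than 2-fold. ACACA, the carboxylase that commits acetyl-CoA to fatty acids, changed by 0.02 in input (95% interval -0.30 to 0.34) and by -0.05 in footprints.

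The second comparison asked whether ribosome-bound mRNA changed in the same genes. In footprints 2 of 32 members were called higher and 9 lower, where 23.8% of all tested genes were called higher and 25.6% lower, and 21 members did not pass. In either direction 11 of 32 members were called, against 49.4% of all tested genes. The 2 higher genes were TM7SF2 and ELOVL6, as in input, and the 9 lower genes held the 4 of the input comparison together with MVK, PMVK, FDPS, FADS1 and FADS2. PMVK, the second kinase of the mevalonate route, fell to 74.2% of its DMSO level (log2 change -0.43, SE 0.12, adjusted p = 0.015), a call lost without trametinib replicate 1 (-0.38, adjusted p = 0.0827) or 2 (-0.39, adjusted p = 0.0707). The median change was -0.18, with -0.23 in the sterol arm, -0.10 among regulators and transport and -0.12 in the fatty acid arm, and -0.01 for all tested genes. Without DMSO replicate 2 the median of the members was -0.10, and without DMSO replicate 3 it was -0.05. Trametinib lay below DMSO without overlap for 8 members and above for 3, against 30.3% and 29.3% of all tested genes. Scaled by library totals instead, the median of the members was -0.0018, the median of all genes moved from -0.01 to 0.16, calls were higher in 64.7% of cases instead of 48.2%, and 3 members were called higher, SREBF2 added (0.39, adjusted p = 0.0205), and 6 lower, with MVK, PMVK and FADS1 lost.

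Without DMSO replicate 1, 18 members were called lower in footprints and 2 higher, with a background of 31.0% and 29.4% (60.3% in either direction), and the median change became -0.37. In the sterol arm 11 of 18 were then lower, with MVD, IDI1, SQLE, NSDHL, DHCR7 and ACAT2 added, and in the fatty acid arm 5 of 8, with ACLY and FASN added. Among the 6 sterol genes not called even then were HMGCS1 (-0.25, adjusted p = 0.0874), FDFT1 (-0.08, 0.589) and LSS (-0.03, 0.834), the synthases at the entry to the mevalonate route and at squalene and lanosterol. Leaving out any other footprint library gave 6 or 7 lower members.

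**Figure D4:**
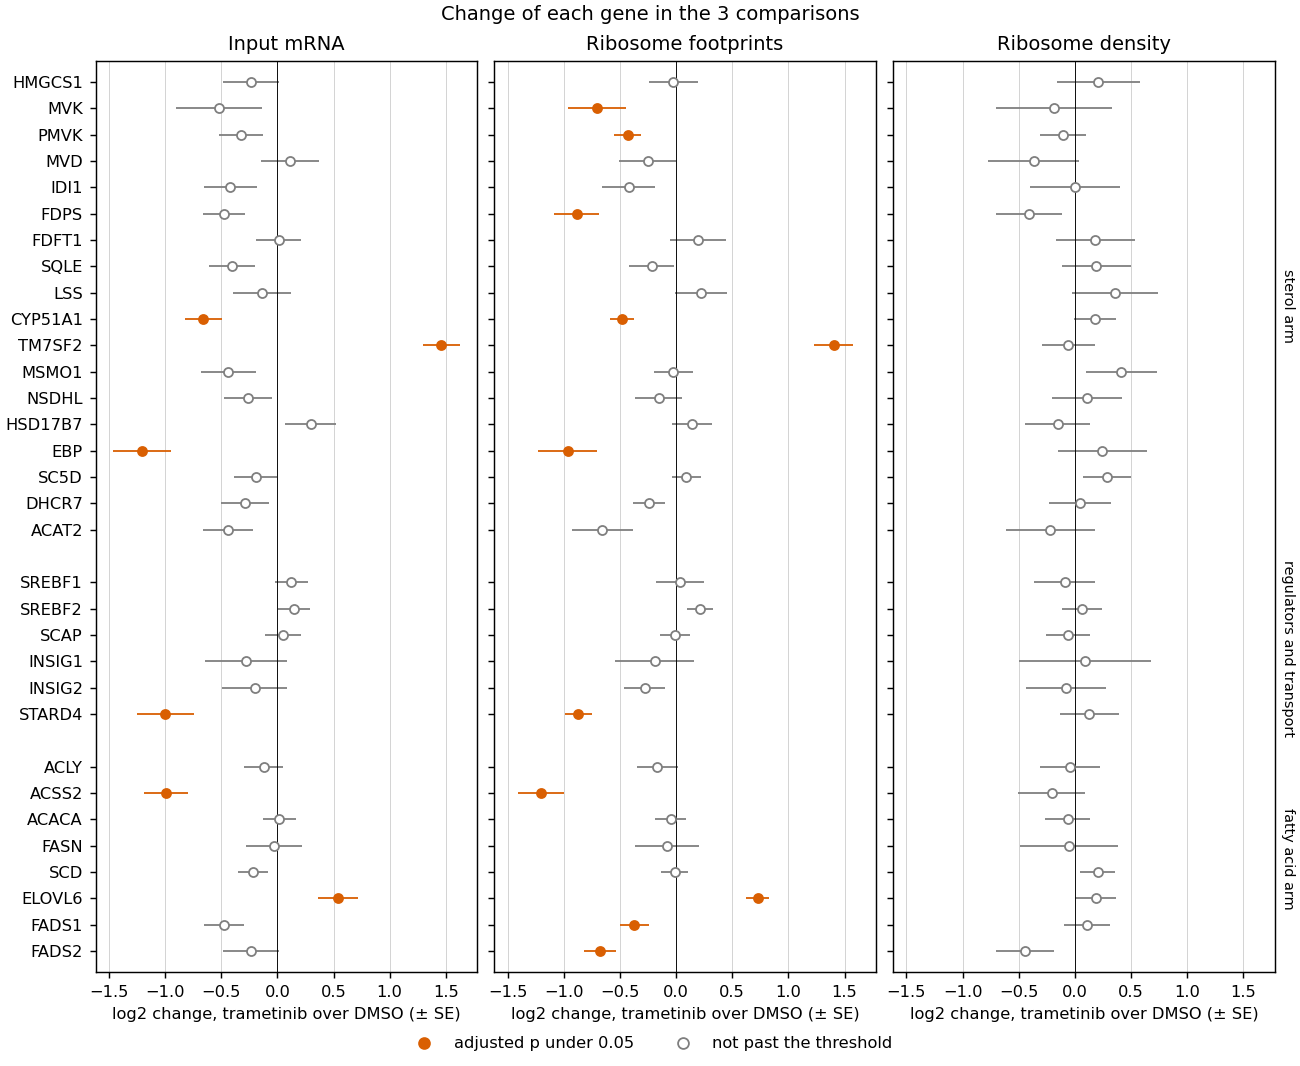
Points give the log2 change of each gene with its standard error for input, footprints and ribosome density, from all libraries, and filled points passed an adjusted p of 0.05. Input and footprint changes point the same way for the genes called in both, with 6 filled points in input, 11 in footprints and 0 in density.

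The third comparison asked whether translation of these mRNAs changed relative to their abundance. Ribosome density, tested as the interaction of assay and treatment in edgeR, was called for 0 of 32 members, where 0.0469% of all tested genes were called higher and 1.00% lower. No member had an unadjusted p under 0.05, against 8.10% of all tested genes, and 0 members were called by DESeq2 or limma-trend. Scaling by library totals moved the median of all genes from 0.00 to 0.18 and that of the members from 0.02 to 0.20, with 25.7% instead of 4.5% of the calls over all genes higher and 0 members called. Changes ran from -0.44 for FADS2 (adjusted p = 0.756) to 0.41 for MSMO1 (adjusted p = 0.86), with a median of 0.02 and 16 genes on each side of 0. The 95% intervals reached from -1.29 to 1.35 over the members, and in 23 of 32 they stayed within a 2-fold change in either direction. These intervals come from the model without a term that pairs the input and footprints of a dish. The median interval was 0.63 wide on each side, and in that model changes smaller than this could not be told from 0 for the median member.

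Input and footprint libraries with the same treatment and number were taken as 1 dish, and their ratio gave a density for each dish. The labels do not state that shared numbers mark a shared dish. For INSIG1 the density was 0.692, 0.685 and 0.535 in DMSO and 0.788, 0.62 and 0.55 under trametinib, so that DMSO replicate 1, where the level was low, had a density within the range of the other dishes. Trametinib dishes lay below DMSO dishes without overlap for 3 members, FDPS, MVD and FADS2, and above for 3, FDFT1, MSMO1 and SCD, with 9.03% and 7.92% of all tested genes as background. These 6 were named after their values were seen. FDPS had densities of 1.4, 1.56 and 1.56 in DMSO and 1.08, 1.1 and 1.26 under trametinib, and MSMO1 2.29, 2.32 and 2.12 against 2.61, 3.71 and 2.85. With a term for the dish in the model, FDPS (log2 change -0.39, adjusted p = 0.311) and MSMO1 (0.42, adjusted p = 0.41) were the 2 members with an unadjusted p under 0.05, against 11.7% of all tested genes, and neither passed the adjusted threshold. The dish term made the standard error smaller for most members, as for INSIG1 (0.22 against 0.59) and FASN (0.19 against 0.44). For STARD4, SREBF2 and FADS2 it did not. Without DMSO replicate 1 the call stayed at 0 of 32 (0.113% of all tested genes higher, 1.29% lower), and FDPS had the lowest adjusted p, 0.331.

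The level of ribosome density differed far more between members than between treatments. In DMSO it ran from 0.257 ± 0.0403 (SD, n = 3) for SCAP to 3.02 ± 0.951 for HMGCS1, a span that may be compared with 0.287 to 2.78, the 5th and 95th percentiles of all tested genes, whose median was 1.02. The ratio needs no length correction because both assays were counted on the same reading frame. Sterol enzymes had a median density of 1.79, and 16 of 18 lay above the median of all tested genes. In the fatty acid arm the median was 1.21 and 5 of 8 lay above, and among regulators and transport it was 0.638 and 2 of 6 lay above. SREBF2 had 0.377 ± 0.0911 and SREBF1 0.639 ± 0.22, next to SCAP at the low end, whereas IDI1 had 2.61 ± 0.322 and SCD 2.39 ± 0.0626.

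**Figure D5:**
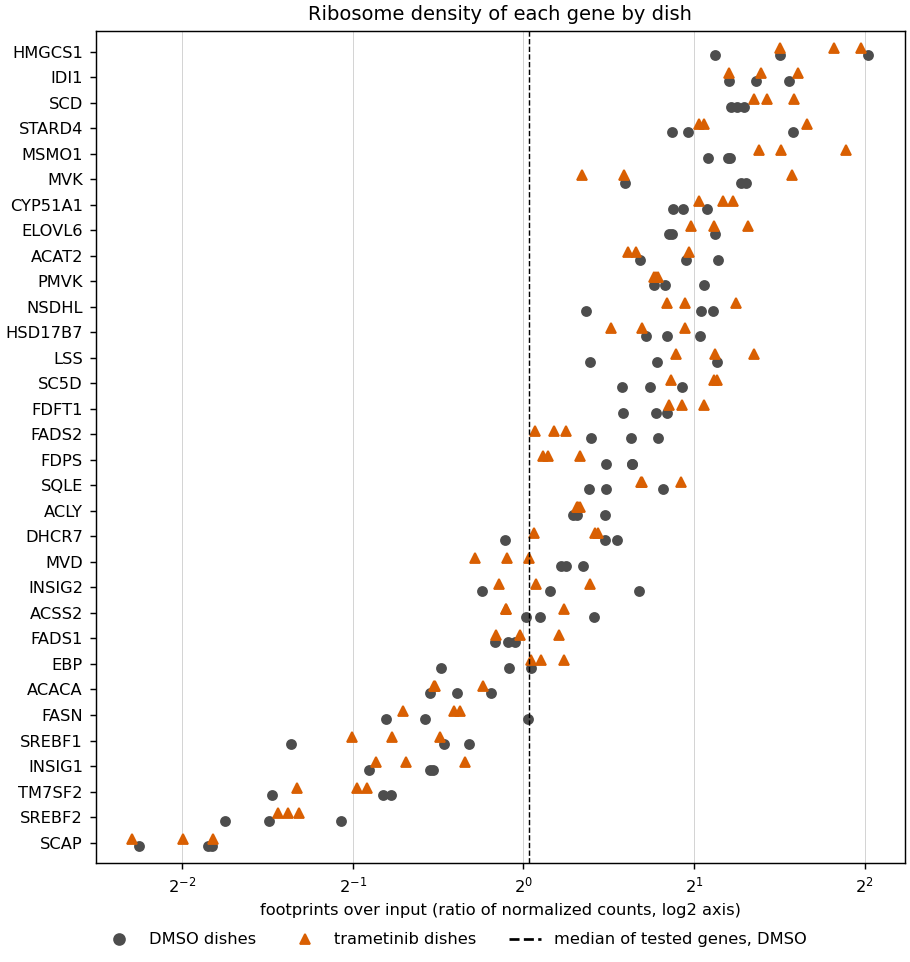
Ribosome density (footprints over input, ratio of normalized counts on a log2 axis) of each gene in every dish, ordered by the DMSO mean. The dashed line marks the median of all tested genes in DMSO, 1.02. SCAP, SREBF2 and TM7SF2 sit lowest and HMGCS1, IDI1 and SCD highest, with DMSO and trametinib dishes mixed in most rows.

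Under trametinib SCAP and SREBF2 were again lowest and HMGCS1 highest, as the plot of density by dish shows. SCAP had 0.246 ± 0.0401, SREBF2 0.385 ± 0.0169 and HMGCS1 3.44 ± 0.56. MSMO1 was next to HMGCS1, with 3.06 ± 0.576 against 2.24 ± 0.107 in DMSO. TM7SF2 was unlike the other sterol enzymes, with 0.504 ± 0.124 in DMSO and 0.479 ± 0.0701 under trametinib, and EBP was the second sterol gene below the median of tested genes, with 0.896 ± 0.163 in DMSO. TM7SF2 was the sterol gene that rose and EBP the one that fell most. CYP51A1, the other sterol gene called lower in input, had a density of 1.95 ± 0.142 in DMSO. A link between the level of density and the change in input was not tested.

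Genes next to the pathway were counted, with all libraries, from lists of the processes that mature, store, export or use its products. Of 10 genes of sterol storage, transport and efflux, 3 were called higher in input and 0 lower, where 15.2% and 16.9% of all tested genes were, and 4 were higher and 2 lower in footprints, where 23.8% and 25.6% were. ABCA1, the pump that exports cholesterol to lipoproteins, rose from 22.9 ± 1.15 to 268 ± 49.4 normalized input counts (log2 change 3.53, SE 0.25, adjusted p = 5.12e-07). ABCG1, a related exporter, rose from 27.9 ± 9.46 to 80.5 ± 18.3 (1.51, SE 0.32, adjusted p = 0.00301), and MYLIP, a ubiquitin ligase for lipoprotein receptors named after its value was seen, by 0.89 (adjusted p = 0.0234). Both exporters and MYLIP are known targets of the sterol-sensing receptors LXR. The LXR genes NR1H2 and NR1H3, also named after their values were seen, were not called in input (0.08 and 0.53, adjusted p = 0.776 and 0.0818). They are among the 7 genes of this list that did not pass in input, and LXR activity was not tested.

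Of 7 genes of SREBP maturation and sterol-regulated degradation, 1 was called higher in input and 1 lower, and in footprints 3 were higher and 2 lower. For this and the following lists the background over all tested genes was 15.2% higher and 16.9% lower in input. In footprints it was 23.8% and 25.6%. MBTPS1, a protease that releases SREBP and was named after its value was seen, rose by 0.61 (adjusted p = 0.00483), and ERLIN1, a scaffold for protein degradation in the endoplasmic reticulum, fell from 264 ± 36.6 to 117 ± 8.65 (log2 change -1.17, SE 0.19, adjusted p = 0.000588). Of 5 tested genes of the isoprenoid branches, PDSS1, which makes the side chain of ubiquinone, was called lower (-1.53, SE 0.32, adjusted p = 0.0027) and 0 higher in input, with 1 higher and 1 lower in footprints. Of 15 genes of acyl-CoA supply, elongation and activation, 3 were higher and 2 lower in footprints, and in input 1 was higher and 2 lower, among them ACSL5, which activates long-chain fatty acids (2489 ± 810.4 in DMSO, 1222 ± 88.6 under trametinib, log2 change -1.03, SE 0.20, adjusted p = 0.00205). Glycerolipid synthesis had 3 higher and 1 lower of 5 in input and likewise in footprints, and fatty acid oxidation 2 higher and 0 lower of 6 in input and 1 and 0 in footprints. In no list was any gene called for ribosome density.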

How the data were processed

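Ribo-seq was analysed in 12 libraries of HCT116 cells, grouped by treatment and assay as the sample labels give them. The authors removed adapters, discarded reads on rRNA and tRNA with Bowtie 1.2.2, mapped the rest to Gencode transcripts, and deposited raw counts of reads inside reading frames of single gene symbols. The deposited table also holds these counts divided by a size factor of the library, a normalized signal, and the authors' own fold changes, adjusted p-values and gene flags, computed with DESeq2 1.46.0, which were not used. Recomputed median-of-ratios size factors matched the deposited ones in all 12 libraries, and 0 columns per library were left unused.

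Input and footprint changes were tested on raw counts with edgeR 4.0.16 (quasi-likelihood test, R 4.3.3, two-sided) within each assay. Ribosome density was tested as the interaction of assay and treatment over all 12 libraries. A gene was tested where 3 or more input libraries had 10 or more counts of it, and p-values were adjusted by Benjamini-Hochberg over all 10663 of them. Intervals are 95% intervals from the standard error and the total degrees of freedom of the edgeR test, prior and residual together. The code was tested on simulated counts with 200 changed genes. Alternatives were DESeq2 1.42.0, limma-trend (limma 3.58.1), TMM and library totals as scaling, other filters, a 2-fold minimum, a replicate block and leaving out each library. Deviations from the group means of same-numbered DMSO and trametinib libraries correlated at 0.117, 0.133 and 0.294 in footprints and 0.069, 0.0502 and 0.34 in input. Alternatives without DMSO replicate 1 and with unadjusted p-values were added after the data were seen.

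The members, the arms, the neighbouring gene lists and the tests were chosen with earlier results of these data known. Per-library values were given for the SREBP genes, SCAP and the INSIG genes, and for the 6 genes of the sterol and of the fatty acid arm with the largest absolute input change and a mean of at least 50 normalized input counts. ACAT2 and MSMO1 shared the sixth place. Outside the members, genes were named where called in input with a change of at least 2-fold, and others as said beside them. Single values of 1 listed gene are not reported here. Gene positions are those of the Gencode annotation of GRCh38 and promoter windows those of RefSeq.

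Pairing was checked by the correlation of deviations from group means over 7668 genes. Same-numbered input and footprint libraries correlated with r of 0.816, 0.182 and 0.345 in DMSO and 0.141, 0.0797 and -0.123 under trametinib. Same-numbered DMSO and trametinib libraries correlated with r of 0.069, 0.0502 and 0.34 in input and 0.117, 0.133 and 0.294 in footprints.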

Additional observations from a re-analysis of the deposited data

How the results depend on the processing

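No called value changed its direction under the alternatives run. Of 283 summary values, 42 moved beyond the limit set for them, which was 1.5 times for a count and 1 SD between replicates for a median or share. The median footprint change of the members, -0.18, stayed within its limit and still ran from -0.37 to -0.05 when single libraries were left out and came to -0.0018 with library totals. Of 1504 values of single members, 1458 kept their side of the threshold, 24 lost and 22 gained a call. Changes that were not called took the other sign in 126 of the 1504, of which 18 were input changes, as for LSS (-0.13 to 0.17), INSIG1 (-0.28 to 0.20) and FASN (-0.03 to 0.35) without DMSO_IN replicate 3 and for HMGCS1 (-0.23 to 0.08) without DMSO_IN replicate 2. The count of members called higher in input, 2 with all libraries, was 1 with DESeq2 and 1 to 2 when single libraries were left out, and that of members called lower, 4, ran from 3 to 12, with 12 only without DMSO replicate 1. In footprints the 9 lower members became 6 to 18 in the same way, with 18 only without DMSO replicate 1. A minimum of 2-fold left 1 member higher and 1 lower in input and likewise 1 and 1 in footprints, with 714 higher and 939 lower genes over the whole table in input and 737 and 1000 in footprints, by construction. Over all tested genes the input calls higher, 1619, ran from 1073 to 1744 when single libraries were left out.

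Ribosome density was called for 0 members in every alternative with an adjusted p. Over all tested genes the 5 higher calls became 36 with DESeq2, 10 with TMM, 27 with library totals, 12 without DMSO dish 1, 377 at an unadjusted p, and 1 to 12 when single libraries were left out, and the 107 lower calls 487 at an unadjusted p and 68 to 130 when single libraries were left out. The median density change of the members, 0.02, was 0.0939 with TMM and 0.20 with library totals, and -0.083 to 0.135 when single libraries were left out, with no cause tested.

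With a replicate block, that is with the replicate number as a term for pairing DMSO and trametinib libraries, 6 members were lower in input. FDPS (-0.45, adjusted p = 0.0442) and FADS1 (-0.47, adjusted p = 0.0477) were added. The block also raised the number of all tested genes called lower in input, and the share of members called lower did not exceed theirs. In footprints 8 members were lower, with MVK (-0.65, adjusted p = 0.068) lost, and 0 were called for density. A replicate block within each treatment, which pairs the input and footprints of a dish, gave 18 higher density calls over all tested genes and 0 among the members. Every footprint pair of DMSO and trametinib libraries correlated above 0.1 and not every input pair did. In footprints the block changed no call of a member other than that of MVK.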

Other observations

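Of the 7 genes of SREBP maturation and sterol-regulated degradation, 6 had a ribosome density change above 0. In edgeR 4 of the 7 had an unadjusted p under 0.05, against 8.10% of all tested genes, and 0 passed the adjusted threshold. Named here after their values were seen, and not as a ranking, are 3 of them. They were ERLIN1 (log2 change 0.81, adjusted p = 0.0627), ERLIN2 (0.55, adjusted p = 0.532) and RNF139 (0.53, adjusted p = 0.471), where the median of all tested genes was 0.00. All 3 are known for degradation of proteins of the endoplasmic reticulum. ERLIN1 fell in input and less in footprints, from 656 ± 24.6 (SD, n = 3) normalized counts in DMSO to 513 ± 40.8 under trametinib. The protease genes MBTPS1 and MBTPS2, also named after their values were seen, had density changes of 0.03 and 0.00.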
